A study of Mus musculus with 6 samples.

Results

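Collagens are the structural proteins of the extracellular matrix, and each is built from chains that wind around one another into a long helix. The collagens described here were taken by a rule on names that leaves out *Col17a1*, a hemidesmosome component. It takes every gene whose symbol reads Col, a number, a and a number. There were 43 such genes among the 24982 genes measured. They were grouped by class into 11 fibrillar collagens, 9 network collagens, 9 FACIT collagens (collagens with interrupted helices that sit on fibrils) and 14 others.

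RNA-seq was done on 6 libraries from keratinocytes of newborn C57BL/6 mouse skin, to compare gene expression between a pair of cell lines. The KSFM-Ca2+ cells (3 libraries) were derived and kept in a keratinocyte serum-free medium with little calcium, and the DKSFM cells (3 libraries) came from KSFM-Ca2+ cells that were moved to defined KSFM, which holds more calcium, and adapted to it. Medium, adaptation and time in culture therefore differ together between the lines and cannot be told apart. Each line grew out of the few cells that survived in its medium, and long-term KSFM-Ca2+ cells were tetraploid or hyperdiploid by karyotype. The dishes for isolation and for subculture were coated with collagen IV protein, which RNA-seq does not see. What a replicate was is not stated, so p-values measure the spread between these samples, which may be technical. The word "combined", which is not explained, stands in the names of the data for KSFM-Ca2+ replicate 3 and all DKSFM replicates. Summed over genes, coverage was 1601676, 1238411 and 1057750 in KSFM-Ca2+ replicates 1 to 3 and 1174348, 1239438 and 1170675 in DKSFM replicates 1 to 3.

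Basal keratinocytes sit on a basement membrane, whose scaffold is a network of type IV collagen. They add to it type XVIII collagen, which carries heparan sulfate chains and contains endostatin, and type VII collagen, which forms the anchoring fibrils that tie the basement membrane to the dermis. The fibrils of the dermis itself, of types I, III and V, are made mainly by fibroblasts.

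Collagen mRNA was present in both lines in like total amount but in a different mixture. The type IV chains *Col4a1* and *Col4a2* were higher in the DKSFM cells, *Col18a1* and *Col8a1* were lower there, *Col6a1* was near the lowest listed value in the KSFM-Ca2+ cells and clearly present in the DKSFM cells, and *Col25a1* was present in the KSFM-Ca2+ cells and listed at 0 in the DKSFM cells. The values below are normalized coverage, the mean number of reads over each base of a gene after scaling of the libraries, so that levels can be compared between genes per length. In bulk samples such as these, fewer cells that express a gene and less of its RNA per cell cannot be told apart.

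Of the 43 collagens, 18 were listed at 0 in every library and 21 never exceeded 0.1, the rounding step of the data. The test, limma on log2(normalized coverage + 0.1), took genes with at least 0.5 in at least 3 libraries, which left 19 collagens among 12409 genes. A gene was called at an adjusted p below the threshold of 0.01 with a change of at least 2-fold. By this rule 11 collagens were higher in the DKSFM cells, against 13.2% of all tested genes, and 3 were lower, against 10.5%. By adjusted p alone 13 collagens were higher, against 35.5% of all tested genes, and 4 were lower, against 37.1%. The libraries of the lines did not overlap for any of the 19 tested collagens, nor for 83.3% of all tested genes. Log2 fold changes (DKSFM minus KSFM-Ca2+) had a median of 1.18 over the 19 collagens and of -0.0012 over all tested genes. These counts are a description, since 9 of the 19 collagens were below 0.5 in at least 1 library, and a gene below it throughout one line is tested only if it is higher in the other. Among the 10 collagens with at least 0.5 in every library, 5 were called higher (*Col4a1*, *Col4a2*, *Col4a5*, *Col9a3* and *Col12a1*), against 9.29% of the 11112 genes past the same filter, and 1 lower (*Col8a1*), against 8.59%.

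**Figure D1:**
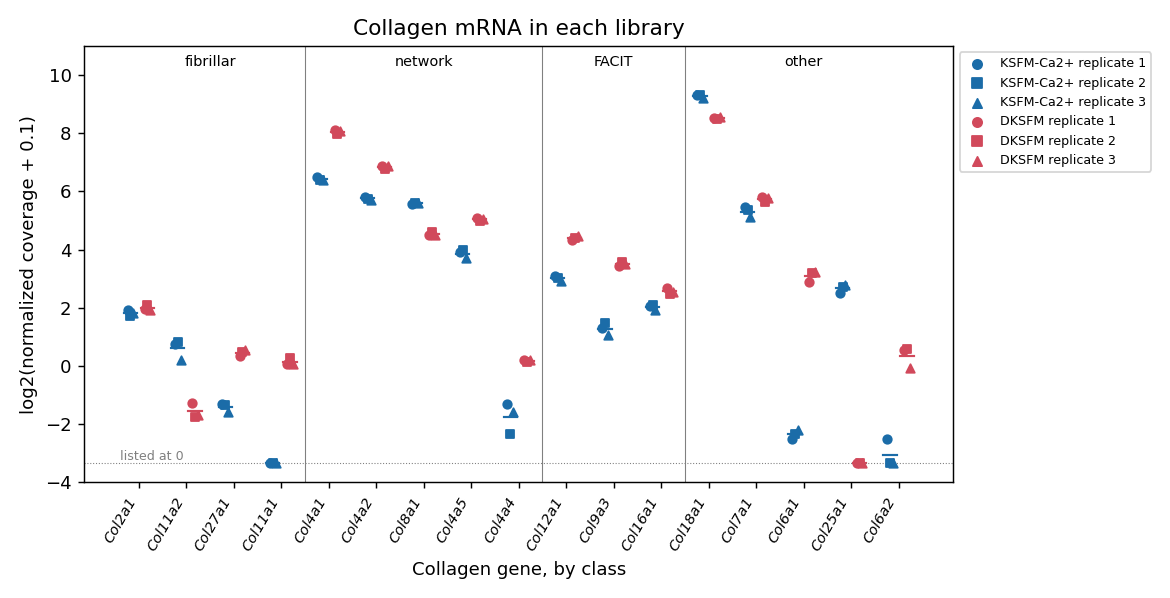
Normalized coverage of each collagen with a mean of at least 1 in either line, as log2(normalized coverage + 0.1), for 3 KSFM-Ca2+ libraries (blue) and 3 DKSFM libraries (red). Symbols are libraries, short lines are means of the log2 values, and the dotted line marks genes listed at 0. *Col18a1* is the highest collagen in every library, and *Col25a1* and *Col11a1* are each listed at 0 in the libraries of 1 line.

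The cells were first checked for what they are. All 8 keratinocyte markers on the list were detected in every library, with *Krt14* the most abundant at 11975 ± 225 (mean ± SD, n = 3) in the KSFM-Ca2+ cells and 29719 ± 1517 in the DKSFM cells. Summed over the list, keratinocyte markers had 19391, 19744 and 19440 in KSFM-Ca2+ replicates 1 to 3 and 47855, 44224 and 48313 in DKSFM replicates 1 to 3. *Krt14*, *Krt5* and *Perp* carried this sum, and the median log2 fold change of the list was 0.14. *Itgb4* was lower in the DKSFM cells, with 321 ± 6.24 against 192 ± 8.57 (1.67-fold, adjusted p = 4.43e-07), as was *Cdh1*, with 159 ± 2.64 against 146 ± 3.12 (adjusted p = 0.00343), and *Dsg3* did not pass the test (adjusted p = 0.284). Of 10 fibroblast markers 4 were listed at 0 in every library, *Dcn*, *Lum*, *Prrx1* and *Thy1*, as were the fibroblast collagens *Col1a1*, *Col1a2* and *Col3a1*. The summed fibroblast markers were nevertheless higher in the DKSFM libraries, with 45.8, 45.0 and 46.6, than in the KSFM-Ca2+ libraries, with 8.84, 8.50 and 8.73. *Fbln1* was the most abundant of them in the DKSFM cells and made up most of the sum there. It had 43.0 ± 0.961 in the DKSFM cells and 0.137 ± 0.0864 in the KSFM-Ca2+ cells. *Twist2*, the most abundant of them in the KSFM-Ca2+ cells, went the other way. It had 7.34 ± 0.272 in the KSFM-Ca2+ cells and listed values of 0.1, 0 and 0 in the DKSFM libraries. *Pdgfra* was low but detected in every library, and it was higher in the DKSFM cells. Its level was 1.11 ± 0.206 in the KSFM-Ca2+ cells and 2.22 ± 0.119 in the DKSFM cells (1.93-fold, adjusted p = 7.32e-04).

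The remaining marker lists stayed low. Endothelial markers summed to 2.82, 3.16 and 3.30 in the KSFM-Ca2+ libraries and 8.28, 8.29 and 7.42 in the DKSFM libraries, nearly all of it *Pecam1*, with *Cdh5*, *Vwf* and *Emcn* at 0 in every library, 3 of the 6 genes listed. Pericyte and smooth muscle markers summed to 0.915, 0.593 and 1.18 in the KSFM-Ca2+ libraries and 0.637, 0.200 and 0.424 in the DKSFM libraries, with *Des* the most abundant in the KSFM-Ca2+ cells, *Acta2* in the DKSFM cells, and *Pdgfrb* and *Cspg4* at 0, 2 of 6 genes. The lines overlapped for this list. Of the melanocyte markers, *Tyr* and *Dct* were listed at 0 in every library. Leukocyte markers summed to 10.9, 11.2 and 12.6 in the KSFM-Ca2+ libraries and 13.6, 19.0 and 20.6 in the DKSFM libraries, nearly all of it *Cd68*, with *Cd3e* at 0 in every library, 1 of 6 genes, and *Ptprc* at 0.1 or less. The part of these marker genes in the collagen results was not tested.

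The network collagens summed to a normalized coverage of 203 ± 4.54 in the KSFM-Ca2+ cells and 437 ± 19.3 in the DKSFM cells (SD, n = 3). *Col4a1* and *Col4a2* encode the chains that make up the type IV collagen of nearly all basement membranes. *Col4a1* (chr8:11198423-11312826, minus strand, GRCm38) had a normalized coverage of 89.1, 83.7 and 83.9 in KSFM-Ca2+ replicates 1 to 3 and 276, 249 and 272 in DKSFM replicates 1 to 3. *Col4a2* (chr8:11312805-11449287, plus strand) had 56.4, 53.5 and 52.6 in the KSFM-Ca2+ libraries and 118, 109 and 117 in the DKSFM libraries. For both genes all DKSFM libraries were far above all KSFM-Ca2+ libraries. *Col4a1* was 3.10-fold higher in the DKSFM cells (log2 fold change 1.63, SE 0.05, adjusted p = 1.99e-08). *Col4a2* was 2.11-fold higher (log2 fold change 1.07, SE 0.04, adjusted p = 1.38e-07).

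The genes lie head to head and are transcribed away from each other, and their annotated first exons overlap by 22 bases. The stretch around the shared starts is shown because both genes rose together and it belongs to both. It is given on the plus strand (RefSeq, GRCm38.p6, chr8:11312801-11312830), with the 22 shared bases in capitals, which begin at the *Col4a2* start and end at the *Col4a1* start, and 4 bases on either side.

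*Col4a1* and *Col4a2* starts: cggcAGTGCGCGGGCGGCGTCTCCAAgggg

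Although both genes rose, they did not rise by the same amount. The ratio of *Col4a1* to *Col4a2* coverage was 1.58, 1.56 and 1.59 in the KSFM-Ca2+ libraries and 2.34, 2.30 and 2.33 in the DKSFM libraries. Each line kept a narrow ratio of its own, with no overlap between them (p = 0.1, exact permutation test, two-sided, the smallest p that 3 against 3 libraries allow). The type IV protein of this pair holds more *Col4a1* than *Col4a2* chains, but mRNA coverage does not measure chains.

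**Figure D2:**
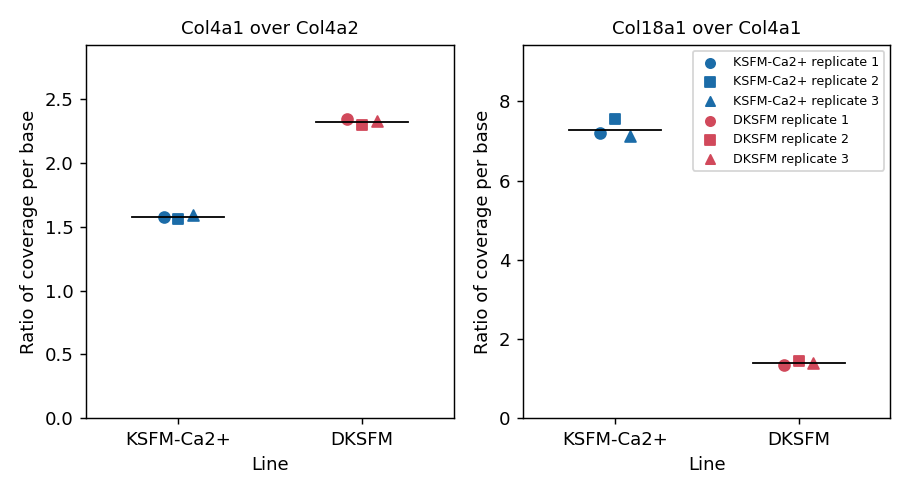
Ratio of coverage per base of *Col4a1* over *Col4a2* (left) and of *Col18a1* over *Col4a1* (right) in 3 KSFM-Ca2+ and 3 DKSFM libraries, with each symbol a library and each line the mean. The mean ratio of *Col4a1* to *Col4a2* is 1.58 in the KSFM-Ca2+ cells and 2.33 in the DKSFM cells, and that of *Col18a1* to *Col4a1* is 7.29 and 1.39.

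The other type IV genes also stand in head-to-head pairs, and in each pair 1 member dominated. *Col4a5* (chrX:141475385-141689234, plus strand), a chain of the type IV networks of skin and kidney, had 14.9, 15.6 and 13.0 in KSFM-Ca2+ replicates 1 to 3 and 33.5, 31.8 and 33.1 in DKSFM replicates 1 to 3. It was higher in all DKSFM libraries, by 2.26-fold (log2 fold change 1.18, SE 0.07, adjusted p = 1.34e-06). Its neighbour *Col4a6*, whose start lies 1309 bases away, was listed at 0.1 to 0.3 and was not tested. *Col4a4* (chr1:82448423-82586849, minus strand) was low, with 0.305, 0.0989 and 0.236 in the KSFM-Ca2+ libraries and 1.06, 0.999 and 1.06 in the DKSFM libraries. All its DKSFM libraries were higher (log2 fold change 1.93, SE 0.30, adjusted p = 3.98e-04), a difference of a few rounding steps. Its neighbour *Col4a3*, with a start 72 bases away, was listed at 0 in the KSFM-Ca2+ libraries and at 0.1 in the DKSFM libraries.

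*Col8a1*, which encodes a short chain that forms hexagonal lattices, was the network collagen that moved the other way. *Col8a1* (chr16:57624258-57754737, minus strand) had 47.1, 48.7 and 49.0 in KSFM-Ca2+ replicates 1 to 3 and 22.7, 24.3 and 22.7 in DKSFM replicates 1 to 3. All KSFM-Ca2+ libraries were higher, and the gene was 2.07-fold lower in the DKSFM cells (log2 fold change -1.05, SE 0.04, adjusted p = 1.49e-07). *Col8a2*, its partner chain, and *Col10a1* were listed at 0 in every library. In all, 5 of 9 network collagens were tested, 4 were called higher and 1 lower, and their log2 fold changes had a median of 1.18. When the same values were tested against a change of 2-fold rather than against no change, *Col4a2* (adjusted p = 0.321), *Col4a5* (adjusted p = 0.108), *Col4a4* (adjusted p = 0.0443) and *Col8a1* (adjusted p = 0.623) did not pass, so for these the size of 2-fold is uncertain.

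Among the other collagens, *Col18a1* stood far above the rest. *Col18a1* (chr10:77052178-77166548, minus strand) had 640.4, 631 and 598 in KSFM-Ca2+ replicates 1 to 3 and 371, 358 and 376 in DKSFM replicates 1 to 3. It lay above 97.5% of all tested genes in the KSFM-Ca2+ cells and above 95.4% in the DKSFM cells. The libraries did not overlap, and the level fell by 0.76 on the log2 scale (SE 0.03, adjusted p = 2.54e-07), which is 1.69-fold and under the 2-fold threshold. *Col15a1*, which encodes the related type XV collagen, was listed at 0.1 to 0.2 and was not tested.

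*Col7a1* (chr9:108953586-108984875, plus strand), the anchoring fibril gene, had 44.0, 40.8 and 34.3 in KSFM-Ca2+ replicates 1 to 3 and 55.8, 50.2 and 55.0 in DKSFM replicates 1 to 3. Its DKSFM libraries were all higher, by a smaller margin than those of the type IV genes (1.36-fold, log2 fold change 0.44, SE 0.09, adjusted p = 0.00193). Its adjusted p came just above the threshold when DKSFM replicate 1 (0.0102) or DKSFM replicate 3 (0.0104) was left out. KSFM-Ca2+ replicate 3 was the lowest of its line here, as for 8 of the 12 collagens whose KSFM-Ca2+ mean was 1 or more.

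The type VI collagens form beaded filaments around cells from the chains of *Col6a1*, *Col6a2* and *Col6a3*. *Col6a1* (chr10:76708792-76726168, minus strand) was listed at 0.1 in each KSFM-Ca2+ library and had a normalized coverage of 7.22, 9.09 and 9.22 in DKSFM replicates 1 to 3. It was clearly expressed in the DKSFM libraries and at the rounding step in the others (log2 fold change 5.44, SE 0.17, adjusted p = 3.59e-08), and the added 0.1 makes this fold an understatement. *Col6a2* (chr10:76595762-76623630, minus strand) was listed at 0.1, 0 and 0 in the KSFM-Ca2+ libraries and had 1.38, 1.40 and 0.848 in the DKSFM libraries. It too was higher in each DKSFM library (log2 fold change 3.41, SE 0.35, adjusted p = 3.10e-05). *Col6a3* was at 0 in the KSFM-Ca2+ cells and reached 0.1 in DKSFM replicates 2 and 3, and *Col6a4*, *Col6a5* and *Col6a6* at 0 in every library.

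*Col25a1* (chr3:130131501-130599877, plus strand) encodes a collagen that spans the cell membrane and is known mainly from neurons. It had a normalized coverage of 5.64, 6.43 and 6.84 in KSFM-Ca2+ replicates 1 to 3 and was listed at 0 in every DKSFM library. The lines were separate (adjusted p = 2.89e-08), and no fold is given against a line at 0. The transmembrane collagens *Col13a1* and *Col23a1* and the collagen *Col28a1* were at 0 in every library, and *Col26a1* did not exceed 0.1. Of the 14 other collagens 5 were tested, with 2 called higher, 1 lower and a median log2 fold change of 0.44.

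The FACIT collagens were lower in level, and those that passed the test were higher in the DKSFM cells. *Col12a1* (chr9:79598991-79718831, minus strand), which encodes a large fibril-associated chain, had 8.54, 8.11 and 7.55 in KSFM-Ca2+ replicates 1 to 3 and 19.9, 20.9 and 22.1 in DKSFM replicates 1 to 3. *Col9a3* (chr2:180597790-180622189, plus strand), a chain of the type IX collagen of cartilage, had 2.36, 2.67 and 2.01 in the KSFM-Ca2+ libraries and 10.7, 11.8 and 11.1 in the DKSFM libraries. Both were higher in every DKSFM library. *Col12a1* differed by 2.58-fold (log2 fold change 1.37, SE 0.07, adjusted p = 4.33e-07) and *Col9a3* by 4.65-fold (log2 fold change 2.22, SE 0.11, adjusted p = 4.63e-07). The exons of *Col9a3* share 234 bases (6.07%) with *Tcfl5* on the opposite strand. The libraries were strand-specific and aligned under a stranded setting, but how the deposited coverage treats such bases is not stated. Its partner chains *Col9a1* and *Col9a2* were listed at 0 in every library.

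*Col16a1* (chr4:130047840-130099283, plus strand), a collagen found near the dermal-epidermal junction, had 4.12, 4.15 and 3.66 in the KSFM-Ca2+ libraries and 6.37, 5.40 and 5.72 in the DKSFM libraries. It was higher in each DKSFM library but under 2-fold (1.45-fold, adjusted p = 0.00104). *Col19a1* was listed at 0 in each KSFM-Ca2+ library and at 0.8 in each DKSFM library (adjusted p = 1.03e-05), and with an added value of 1 it came under 2-fold (0.87 on the log2 scale). *Col20a1* was between 0.396 and 0.610 in the KSFM-Ca2+ libraries and between 0.699 and 0.955 in the DKSFM libraries and did not pass the test (adjusted p = 0.0370). *Col14a1* and *Col22a1* were at 0 in every library, and *Col21a1* was not analysed here. Of the 9 FACIT collagens 5 were tested, with 3 called higher, 0 lower and a median log2 fold change of 1.37.

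Fibrillar collagens were nearly absent. The genes for types I, III and the main type V chains, *Col1a1*, *Col1a2*, *Col3a1*, *Col5a1* and *Col5a2*, and *Col24a1* were listed at 0 in all 6 libraries, and *Col5a3* at 0 to 0.3. *Col2a1* (chr15:97975602-98004695, minus strand), the cartilage type II gene, was the most abundant, with 3.66, 3.16 and 3.42 in KSFM-Ca2+ replicates 1 to 3 and 3.82, 4.20 and 3.71 in DKSFM replicates 1 to 3. Its libraries came close to each other and its difference did not pass the test (log2 fold change 0.19, 95% interval -0.04 to 0.42, adjusted p = 0.113). With scaling by quantiles the difference was -0.0076.

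The type XI genes, whose chains assemble together in cartilage, went in opposite directions. *Col11a1* (chr3:114030540-114220718, plus strand) was listed at 0 in each KSFM-Ca2+ library and had 0.955, 1.10 and 0.954 in DKSFM replicates 1 to 3 (adjusted p = 5.53e-06). *Col11a2* (chr17:34039437-34066685, plus strand) had 1.60, 1.68 and 1.06 in the KSFM-Ca2+ libraries and 0.318, 0.200 and 0.212 in the DKSFM ones (log2 fold change -2.16, SE 0.25, adjusted p = 7.18e-05). Thus the DKSFM libraries were the higher ones for the former and the lower ones for the latter. *Col27a1* (chr4:63214004-63334991, plus strand), also known from cartilage, had 0.305, 0.297 and 0.236 in the KSFM-Ca2+ libraries and 1.17, 1.30 and 1.38 in the DKSFM libraries, higher in each (log2 fold change 1.87, SE 0.20, adjusted p = 3.67e-05). These levels are small, and with an added value of 1 instead of 0.1 *Col11a2* and *Col27a1*, like *Col4a4*, came under 2-fold, at -0.97, 0.83 and 0.75 on the log2 scale. A rounding step of 0.1 nonetheless stands for 767 aligned bases on the longest annotated *Col11a1* transcript (7667 bases). Of the 11 fibrillar collagens 4 were tested, with 2 called higher, 1 lower and a median log2 fold change of 1.03.

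**Figure D3:**
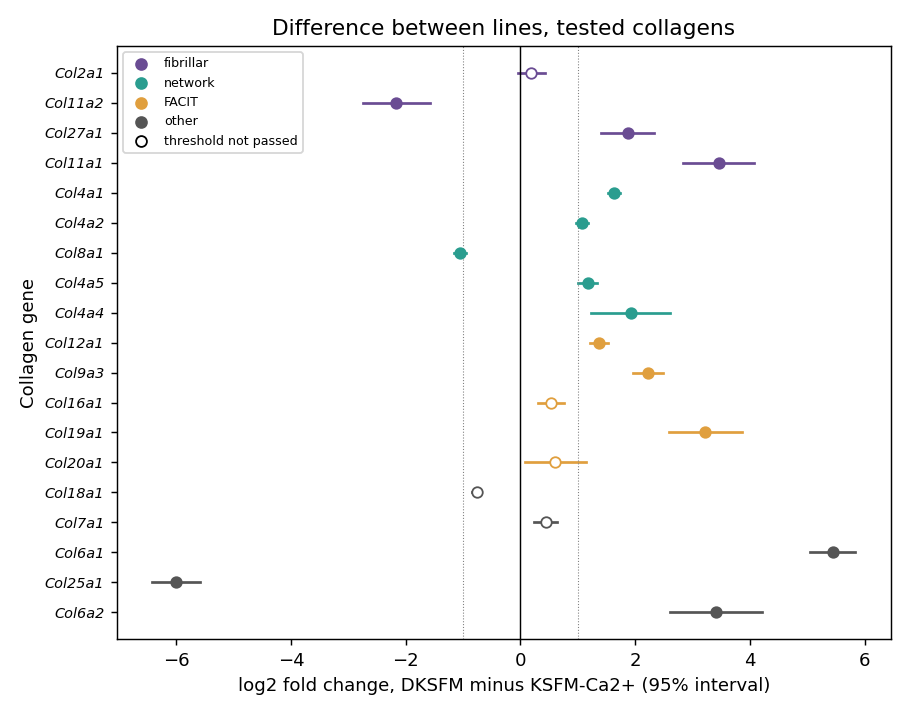
Log2 fold change (DKSFM minus KSFM-Ca2+, on log2 of normalized coverage + 0.1) of the 19 tested collagens, coloured by class, with 95% intervals from limma. Filled points passed the threshold, dotted lines mark 2-fold, and the points of *Col25a1*, *Col11a1* and *Col19a1*, each listed at 0 in 1 line, are set by the added 0.1 and give no fold.

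The sequence just before the start of transcription was compared between collagens. The RefSeq table (GRCm38.p6) held a start for 34 of the 43 genes, some with more than 1, which gave 37 windows of 100 bases. On either strand, the GC box GGGCGG occurred in 18 of the 37 windows, against 24.7% of all 32851 promoter windows of that length. The CCAAT box, with just those letters, occurred in 3, against 18.9%. The TATA box TATAAA occurred in 1, against 5.56%. The windows of 3 genes are shown, since *Col11a1* and *Col25a1* are each listed at 0 in 1 line and *Col8a1* is the network collagen that fell. They end at the base before the start, are read along the gene, overlap no annotated exon and have matches to these letters in capitals. The window of *Col19a1*, also listed at 0 in 1 line, overlaps an annotated exon, holds no match to these letters and is not shown. The places are chr3:114030440-114030539 (plus strand) for *Col11a1*, chr3:130180745-130180844 (plus strand) for *Col25a1* and chr16:57754738-57754837 (minus strand) for *Col8a1*. The RefSeq start of *Col25a1* lies inside the gene as placed above, downstream of the start given there.
*Col11a1*: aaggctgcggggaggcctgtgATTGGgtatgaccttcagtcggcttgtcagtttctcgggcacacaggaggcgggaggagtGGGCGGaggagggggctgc
*Col25a1*: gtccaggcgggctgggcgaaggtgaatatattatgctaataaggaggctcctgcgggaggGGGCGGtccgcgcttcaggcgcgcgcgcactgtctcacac
*Col8a1*: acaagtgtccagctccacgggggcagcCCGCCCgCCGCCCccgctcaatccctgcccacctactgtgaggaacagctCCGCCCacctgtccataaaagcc
Of the 12 called collagens with a window, 8 have a GC box match in at least 1 of their windows, and *Col4a1*, *Col4a4*, *Col6a1* and *Col19a1* have none there. This count is per gene and was not compared with the collagens that were not called. The letters GGGCGG also stand in the bases shared by the *Col4a1* and *Col4a2* starts, given above, which lie outside the windows of both genes. A match is a description of letters and not a shown binding site.

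The lines thus differed in which collagens made up their collagen mRNA and little in how much there was. Summed over all 43 genes, collagen coverage was 919, 901 and 857 in KSFM-Ca2+ replicates 1 to 3 and 932, 880.4 and 934 in DKSFM replicates 1 to 3, and these overlapped. Collagens made up 0.0725% ± 0.00346 (SD, n = 3) of all coverage in the KSFM-Ca2+ cells and 0.0737% ± 0.00228 in the DKSFM cells. The network class took 22.6%, 22.4% and 23.2% of collagen coverage in the KSFM-Ca2+ libraries and 48.4%, 47.2% and 47.7% in the DKSFM libraries. The class of other collagens, which is mostly *Col18a1*, took 75.1%, 75.3% and 74.6% in the KSFM-Ca2+ libraries and 46.7%, 47.5% and 47.3% in the DKSFM libraries. The FACIT class had a share of 1.67% ± 0.0593 in the KSFM-Ca2+ cells and 4.33% ± 0.169 in the DKSFM cells, and the fibrillar class stayed under 1% in every library.

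**Figure D4:**
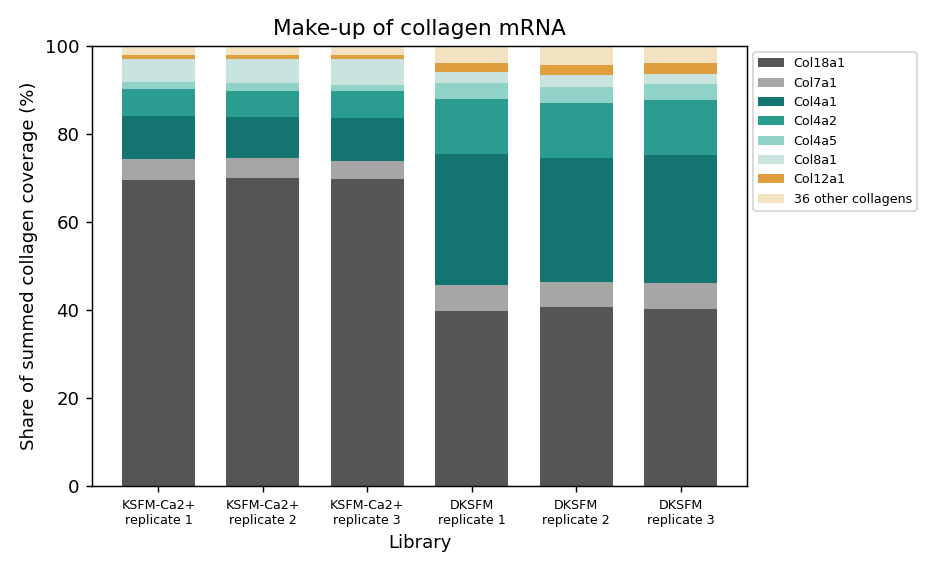
Share of summed normalized collagen coverage (percent) taken by the 7 most abundant collagens and by all others together, in each of the 6 libraries. *Col18a1* takes 69.8% on average in the KSFM-Ca2+ libraries and 40.2% in the DKSFM libraries, and *Col4a1* and *Col4a2* together 15.7% and 41.5%.

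By level per length, *Col18a1*, *Col4a1* and *Col4a2* came in this order in both lines. *Col8a1* followed in the KSFM-Ca2+ cells, with a mean of 48.3, ahead of *Col7a1* with 39.7 and *Col4a5* with 14.5. In the DKSFM cells *Col7a1* with 53.7 and *Col4a5* with 32.8 came before *Col8a1* with 23.2. The distance between the leading genes narrowed: *Col18a1* was 7.19, 7.54 and 7.13 times *Col4a1* in KSFM-Ca2+ replicates 1 to 3 and 1.34, 1.43 and 1.38 times in DKSFM replicates 1 to 3. Neighbours in these orders did not overlap in their libraries, apart from *Col16a1* and *Col2a1* in the KSFM-Ca2+ cells and *Col27a1*, *Col6a2*, *Col4a4* and *Col11a1* in the DKSFM cells.

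The genes in the neighbourhood of each of the 19 tested collagens were looked at as well. For the tested genes in the 20 Mb window that holds such a collagen, the median difference between lines, less that of all tested genes, ran on the log2 scale from -0.38 for the window of *Col19a1* to 0.54 for that of *Col27a1*. It was -0.24 around *Col4a1* and *Col4a2*, 0.26 around *Col18a1*, *Col6a1* and *Col6a2* and 0.50 around *Col11a1*. The part of these windows in the collagen results was not tested.

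Collagen chains are hydroxylated, glycosylated, folded and exported, trimmed outside the cell and crosslinked, and the genes of these steps and of collagen receptors were followed as a list of 47. Of these 33 were tested, and 11 were called higher in the DKSFM cells, against 13.2% of all tested genes, and 4 lower, against 10.5%, their median difference being -0.17 on the log2 scale. By adjusted p alone 13 were higher, against 35.5% of all tested genes, and 16 lower, against 37.1%. Of the 27 with at least 0.5 in every library, 5 were called higher, against 9.29% of the genes past that filter, and 4 lower, against 8.59%. The largest difference lay in crosslinking, where 2 of 3 tested genes were higher and 0 lower. *Lox*, which encodes lysyl oxidase, was listed at 0 in each KSFM-Ca2+ library and had a normalized coverage of 352, 353 and 371 in DKSFM replicates 1 to 3 (adjusted p = 3.35e-11). *Loxl4*, a related oxidase, had 0.915, 1.29 and 1.30 in the KSFM-Ca2+ libraries and 34.2, 38.8 and 37.6 in the DKSFM ones (log2 fold change 4.88, SE 0.13, adjusted p = 1.68e-08). Both were high in every DKSFM library, while the collagens of types I and III, on which lysyl oxidase is best known to act, were listed at 0 in both lines. *Pxdn*, which encodes the peroxidasin that crosslinks type IV collagen and was named after its values were seen, was lower but under 2-fold, with 22.1 ± 0.412 in the KSFM-Ca2+ cells and 15.0 ± 0.687 in the DKSFM cells (adjusted p = 1.83e-05).

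Of 10 genes of prolyl hydroxylation 9 were tested, 3 higher and 2 lower. *P3h4*, a non-enzymatic relative of the prolyl 3-hydroxylases, had 22.4, 22.4 and 21.9 in the KSFM-Ca2+ libraries and 112, 117 and 111 in the DKSFM ones (log2 fold change 2.34, SE 0.04, adjusted p = 1.11e-09). *P3h2*, a prolyl 3-hydroxylase known to act on type IV collagen, had 5.33, 5.83 and 5.90 in the KSFM-Ca2+ libraries and 13.0, 12.9 and 12.1 in the DKSFM ones (log2 fold change 1.14, SE 0.07, adjusted p = 1.48e-06). In contrast *P4ha1*, a catalytic subunit of prolyl 4-hydroxylase, fell from 42.6 ± 0.825 to 20.6 ± 0.528 (SD, n = 3; log2 fold change -1.04, SE 0.04, adjusted p = 1.12e-07). Tested against a change of 2-fold, *P3h2* (adjusted p = 0.222) and *P4ha1* (adjusted p = 0.788) did not pass, so their size of 2-fold is uncertain.

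The 4 tested genes of lysyl hydroxylation and glycosylation, of 5 listed, gave 0 calls in either direction, while 3 of them were lower by adjusted p. The most abundant, the galactosyltransferase gene *Colgalt1*, had 105 ± 0.321 in the KSFM-Ca2+ cells and 89.9 ± 1.34 in the DKSFM cells. All 9 genes of folding and export were tested, with 2 higher, *Fkbp10* and *Creb3l1*, both below 2 in every library, and 0 lower. Against 2-fold *Fkbp10* did not pass (adjusted p = 0.0231), and with an added value of 1 *Creb3l1* came under 2-fold, at 0.73 on the log2 scale. *Serpinh1*, which encodes the collagen chaperone HSP47 and like *Fkbp10* and *Creb3l1* was named after its values were seen, had 1028, 1008 and 1044 in the KSFM-Ca2+ libraries and 1007, 986 and 986 in the DKSFM ones (log2 fold change -0.05, SE 0.03, adjusted p = 0.116), and 0.017 on the log2 scale with scaling by quantiles. Its level stood above that of every collagen in each library. Of 8 genes of propeptide processing 5 were tested, 2 higher and 1 lower, and the lower one, *Pcolce2*, an enhancer of procollagen trimming, had 16.8, 19.4 and 21.6 in the KSFM-Ca2+ libraries and 2.65, 1.40 and 1.91 in the DKSFM ones (log2 fold change -3.25, SE 0.21, adjusted p = 1.75e-06). Of 9 collagen receptors 3 were tested, 2 higher and 1 lower, and *Ddr1*, the collagen-binding receptor kinase of epithelia, had 337, 328 and 296 in the KSFM-Ca2+ libraries and 675, 672 and 716 in the DKSFM ones (log2 fold change 1.11, SE 0.05, adjusted p = 2.70e-07). Against 2-fold it did not pass (adjusted p = 0.196).

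**Figure D5:**
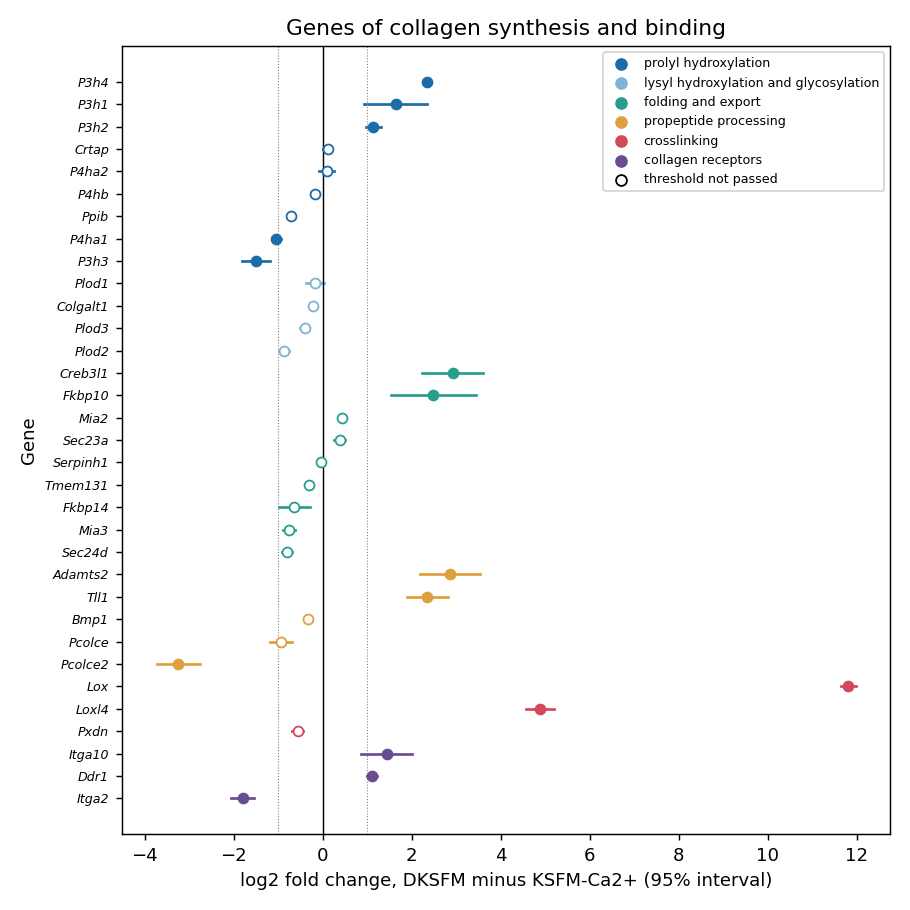
Log2 fold change (DKSFM minus KSFM-Ca2+, on log2 of normalized coverage + 0.1) of the 33 tested genes of collagen synthesis, processing, crosslinking and binding, coloured by list, with 95% intervals from limma. Filled points passed the threshold and dotted lines mark 2-fold. The points of *Lox*, *Creb3l1* and *Adamts2*, each listed at 0 in the KSFM-Ca2+ cells, are set by the added 0.1 and give no fold.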

How the data were processed

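The authors sequenced strand-specific poly(A) libraries as single reads, aligned them to mm10 with STAR and quantified them in a BaseSpace app, and the submitters' processing notes also name bcl2fastq and DESeq2. The authors deposited a signal per gene, its mean read coverage per base to 1 decimal, unscaled, and how it was computed is not given in the sources used here. Coverage is not a count, so counting intervals are not given, and the step of 0.1 limits low values. Samples were grouped by their labels.

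Libraries were scaled with trimmed means of M values, unweighted (trims of 30% and 5%, factors 0.991 to 1.01). Genes with at least 0.5 in at least 3 libraries were fitted with limma 3.58.1 (R 4.3.3) on log2(normalized coverage + 0.1) with an intensity trend and no covariate, so a fold change understates low genes. Benjamini-Hochberg adjustment covered all tested genes. The procedure was tested on simulated data. Changes were placed only in genes well above the rounding step in the KSFM-Ca2+ cells, so recovery of genes near that step was not tested.

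Values per library are given for each collagen with a mean of at least 1 in either line. From the lists of synthesis and receptor genes, called genes that average 10 or more in whichever line is higher are named, up to 4 per list, or the most abundant member where none was called, and from marker lists the most abundant and defining members. The genes and lists were chosen with earlier results of these data known. Positions and exons are from GENCODE M21, promoters from RefSeq. Figures were drawn with matplotlib. The alternatives were 3 other scalings, other filters and pseudocounts, a fit without the trend, treat, a replicate block, each library left out, and the libraries marked as combined.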

Additional observations from a re-analysis of the deposited data

How the results depend on the processing

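The same 14 collagens were called, 11 higher and 3 lower, with scaling by size factors from median ratios, by totals or by quantiles, with a pseudocount of 0.5, no intensity trend and each library left out in turn. Without a filter *Col4a3* joined them (12 higher). A filter of 0.5 in every library, which by its construction removes genes near 0 in 1 line, left 10 tested collagens with 5 called higher and 1 lower. The fit with the combined libraries only sets 1 KSFM-Ca2+ library against 3 DKSFM libraries. It takes the spread from the latter and assumes that the single library varies like them, so only sizes are given. It held 17 collagens, since its filter leaves out *Col11a2* and *Col25a1*. The log2 fold change in it was 1.66 for *Col4a1*, 1.12 for *Col4a2*, -1.07 for *Col8a1* and -0.70 for *Col18a1*. A pseudocount of 1 gave 8 higher and 2 lower, as did treat against 2-fold. Apart from the combined libraries, 295 values of the tested collagens were compared: 287 kept their side of the threshold, 8 came under it, and 1 changed sign, that of *Col2a1* with quantiles, not called in either. *Col7a1*, under 2-fold, passed 0.01 in adjusted p in neither fit without DKSFM replicate 1 or 3. For 12 genes named from the pathway, without *Itga2*, 184 of 189 values kept their side and 5 came under it. *Serpinh1*, not called, changed sign with quantiles.

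Over all genes, 1636 were higher and 1307 lower. The filter on every library gave 1032 higher, and treat 1062 higher and 785 lower. Of the genes of collagen synthesis and binding, the filter on every library gave 5 higher, and treat 6 higher and 2 lower. No sign was seen that replicate numbers pair the samples, as deviations of same-numbered libraries correlated at -0.0051, 0.024 and -0.0061. These values cannot exclude a pairing with a small effect. A replicate block gave 11 collagens higher and 3 lower, and 1641 and 1304 of all genes. Collagens under 0.5 in both lines could not be compared at the rounding step of 0.1.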
